A study of Mus musculus with 3 samples.

Results

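The TGF-beta pathway carries a secreted signal to the nucleus. Ligands of the TGF-beta family are stored outside the cell in a latent complex, and once released they bind a type II receptor, which recruits and activates a type I receptor. The activated type I receptor phosphorylates receptor SMADs, which join a common SMAD and regulate genes, while an inhibitory SMAD made in response limits the signal. In mammary carcinoma the pathway is known both for restraining the growth of epithelial cells and for promoting invasion and metastasis.

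The genes described here are the 10 core genes of that pathway, namely the ligand genes Tgfb1, Tgfb2 and Tgfb3, the receptor genes Tgfbr1, Tgfbr2 and Tgfbr3, and the SMAD genes Smad2, Smad3, Smad4 and Smad7. They were found as all probe sets for which the platform annotation gives one of these genes as the only symbol, which yielded 25 of the 45037 probe sets and 10 of the 18193 named genes. Each probe set is a group of short oligonucleotides on the array that reports on 1 transcript region.

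RNA came from 4T1 cells, a mouse mammary carcinoma cell line that grows and spreads when returned to mice. The study had 3 arrays, 1 for each condition: cells that had grown in contact with MSCs for 1 week and were then isolated from the co-culture, cells kept for 1 week in MSC-conditioned medium (MSC-CM), and cells in regular medium, for which no time is given. All of them were grown in RPMI-1640 with fetal bovine serum, which usually contains some TGF-beta. The labels do not spell out MSC, which usually stands for mesenchymal stem or stromal cell, and give neither its origin nor the method of isolation. With 1 array a condition there is no replicate error, no test and no p-value for any difference below. Every difference sets 1 array against 1 other, so precision is limited by how few arrays there are.

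Values are MAS5 signals, a brightness on a linear scale that was used as deposited. The arrays had median signals of 72.5 in co-culture, 71.6 in conditioned medium and 79.8 in regular medium. Signals at or below 42.4, the 40th percentile of all signals, were set to that floor before logarithms were taken, and a difference from a signal at the floor is written as a bound. A probe set is called bright in a comparison when its brighter signal reached 149.3, the 60th percentile, and higher or lower when it was bright and differed at least 2-fold. The floor and the bright level are not detection calls. Counts of genes use the probe set of the gene that was brightest on average over the arrays. Levels are compared between arrays for the same probe set only.

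The labelled cell type was checked first. Of 15 matched epithelial markers 14 were bright on every array, among them Krt8 with 16476 in co-culture, 15956 in conditioned medium and 15049 in regular medium, and Epcam with 5543, 5009 and 5196 in the same order. The list was not level throughout: Krt14 had 439.1 in co-culture, 1263 in conditioned medium and 1218 in regular medium, 2.77-fold lower in co-culture than in regular medium, and St14 was 2.04-fold higher. Summed epithelial signals were 104917 in co-culture, 82696 in conditioned medium and 80265 in regular medium, with a median log2 difference of 0.46 between co-culture and regular medium. Of the 19 matched MSC and fibroblast markers, 8 were bright in co-culture, 6 in conditioned medium and 6 in regular medium, with summed signals of 13199, 8248 and 7950, so both lists had their highest sum in co-culture. The defining markers Col1a1, Dcn and Thy1 had 41.9, 35.2 and 6.7 in co-culture, below the floor, and Col3a1 and Lum had 45.7 and 43.8, just above it. Other markers of that list were above the bright level in co-culture. Col1a2 had 188.2 and Pdgfra 187.5, each 1.85-fold above regular medium, and Bgn had 181.5, at least 4.28-fold above it. Pdgfra was bright in conditioned medium too, at 158.9. The 6 markers bright in regular medium were Vcam1 (2660.5), Nt5e (2157), Sparc (1390), Postn (765.6), Col5a1 (277.1) and Col6a2 (191.1). Col6a2 was lower in co-culture, at 126.9. Vcam1, Nt5e, Sparc and Postn had the largest signals of the list on every array. The remaining lists were dimmer: of 8 macrophage and leukocyte markers 2 were bright in co-culture, of 8 smooth muscle and pericyte markers 1 was, and of 6 endothelial markers 1 was. The smooth muscle marker was Acta2, also a marker of myofibroblasts, with 278.3 in co-culture, 157.0 in conditioned medium and 42.4 in regular medium, which is the floor, so it was at least 6.56-fold and at least 3.70-fold higher than regular medium. Other members of that list went the other way. Cspg4 had 36.0 in co-culture and 27.8 in conditioned medium, below the floor, against 188.9 in regular medium, at least 4.46-fold lower in each. Mcam had 120.1 in co-culture, 146.9 in conditioned medium and 176.6 in regular medium. In an RNA sample from a whole population, fewer cells of a type and less RNA per cell cannot be told apart.

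The ligand genes did not share a pattern, so the promoters of the ligand gene that met the 2-fold rule and of the one whose signal was level are shown side by side. Both are the 250 bases before the gene's start from RefSeq, build GRCm38.p6, written 5′ to 3′ on the gene's strand, with the capitals marking the E-box CACGTG where it occurs. The Tgfb2 window lies at chr1:186705990-186706239 on the minus strand, and the Tgfb1 window at chr7:25686752-25687001 on the plus strand.
Tgfb2: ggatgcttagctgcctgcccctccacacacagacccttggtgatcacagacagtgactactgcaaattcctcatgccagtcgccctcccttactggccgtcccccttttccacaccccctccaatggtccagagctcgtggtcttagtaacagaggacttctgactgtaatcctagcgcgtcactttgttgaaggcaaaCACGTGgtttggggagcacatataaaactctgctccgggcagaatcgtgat
Tgfb1: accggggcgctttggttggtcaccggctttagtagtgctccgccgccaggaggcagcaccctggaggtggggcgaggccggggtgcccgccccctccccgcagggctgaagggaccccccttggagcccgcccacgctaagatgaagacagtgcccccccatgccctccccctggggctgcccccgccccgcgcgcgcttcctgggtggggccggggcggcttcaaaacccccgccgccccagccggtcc

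The Tgfb2 window was 53.6% G and C, close to the median of 52.4% over 32841 promoters, whereas the Tgfb1 window was 75.2% G and C, above 96.1% of them. CACGTG, which reads the same on both strands, lies in the Tgfb2 window 51 to 46 bases before the start and is held by 6.02% of all promoters of this length. The other motifs searched on both strands were GTCTAGAC (in 0.167% of all promoters), AGCCAGACA (0.301%), TGACGTCA (1.55%), TGAGTCA (4.46%) and the core of the interferon-stimulated response element (2.98%). None of these others matched in the 6 promoters searched, which belong to Tgfb1, Tgfb2, Tgfbr1 (with 2 starts), Tgfbr2 and Smad3. A match describes the letters only, and a missing match says only that those letters are not in the window.

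Tgfb2, a ligand that depends on the co-receptor betaglycan for efficient receptor binding, had its highest signal in co-culture on each of its probe sets above the floor. Probe set 1450922_a_at gave 296.0 in co-culture, 238.0 in conditioned medium and 143.2 in regular medium. Probe set 1450923_at gave 237.8, 119.9 and 93.1 in the same order, and 1423250_a_at gave 225.7, 125.0 and 116.7. The array order was thus the same on these 3 probe sets, which the annotation ties to 1 source transcript record. The co-culture signal was 2.07-fold, 2.55-fold and 1.93-fold the regular-medium signal, or 1.05, 1.35 and 0.95 on the log2 scale. These 3 log2 differences had an SD of 0.21, a spread between probe sets that holds no variation between cultures. By gene, the difference fell short of 2-fold with the floor raised to the 60th percentile (0.99), with log2(signal + 16) (0.97) and as the mean over all probe sets (0.84). The fourth probe set, 1438303_at, was below the floor on all arrays, at 15.7, 7.2 and 8.3. The mean over all probe sets of Tgfb2 includes it as a difference of 0.

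For Tgfb2 in conditioned medium the probe sets differed in size. The log2 difference from regular medium was 0.73 on 1450922_a_at, against 0.36 on 1450923_at and 0.10 on 1423250_a_at, and the last pair stayed below the bright level on both arrays. Conditioned medium thus lay above regular medium on all 3 probe sets, but by less than 2-fold. The log2 differences of co-culture minus conditioned medium were 0.31, 0.99 and 0.85 in that order of probe sets, with co-culture higher on each.

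Tgfb3, a ligand best known from mouse palate and lung development, has 1 probe set in the annotation. Its signal was 480.1 in co-culture, 258.6 in conditioned medium and 281.4 in regular medium. The co-culture signal was 1.71-fold the regular-medium signal, a log2 difference of 0.77, and stayed short of the 2-fold rule. Conditioned and regular medium lay within 1.09-fold of each other. The summed signals of the MSC and fibroblast markers and of the epithelial markers were highest in co-culture too. Vcam1, Nt5e, Sparc and Postn, bright in regular medium as well, had the largest signals of the MSC and fibroblast list. Acta2 had the array order of Tgfb2, as given above, while Cspg4 and Mcam of its list were highest in regular medium. The part of other cells in the ligand values was not tested.

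Tgfb1, the ligand gene most studied in tumours and their stroma, was level across the arrays. Probe set 1420653_at gave 1017 in co-culture, 927.8 in conditioned medium and 1004 in regular medium, a co-culture difference of 0.02 on the log2 scale. A second probe set, 1445360_at, was below the bright level everywhere, with 89.7, 62.8 and 52.3. Its log2 difference between co-culture and regular medium was 0.78, so the dim probe set and the bright one did not give the same size of difference.

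**Figure D1:**
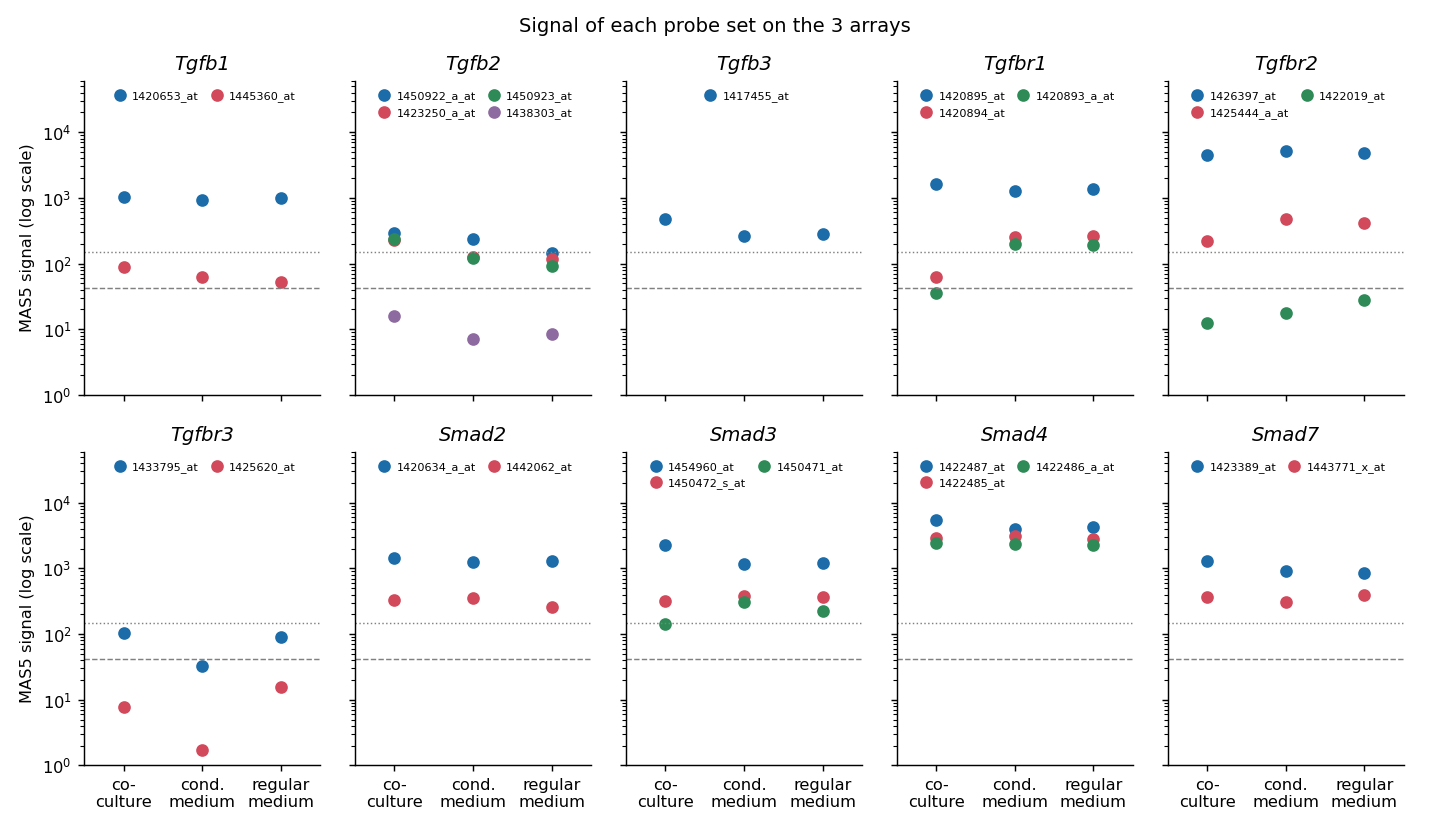
MAS5 signal (log scale) of each of the 25 probe sets on the co-culture, conditioned-medium and regular-medium arrays, 1 panel a gene and 1 point an array, with the floor of 42.4 dashed and the bright level of 149.3 dotted. The upper Tgfb2 points are highest in co-culture, and the lower Tgfbr1 points lie at 62.0 and 35.5 there while the uppermost Tgfbr1 points stay between 1280 and 1601.

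The receptor genes gave no common difference, and for Tgfbr1 the probe sets opposed each other. Tgfbr1 encodes the type I receptor kinase that phosphorylates Smad2 and Smad3. Its brightest probe set, 1420895_at, gave 1601 in co-culture, 1280 in conditioned medium and 1350 in regular medium, a log2 difference of 0.25 between co-culture and regular medium. Probe set 1420894_at gave 62.0 in co-culture, against 249.0 in conditioned medium and 266.4 in regular medium. Probe set 1420893_a_at gave 35.5 in co-culture, below the floor, against 197.9 in conditioned medium and 191.4 in regular medium. Co-culture was therefore 4.30-fold lower than regular medium on 1420894_at and at least 4.51-fold lower on 1420893_a_at, although the annotation ties all 3 to the same source record. In conditioned medium the 3 probe sets lay within 1.07-fold of regular medium. The direction for Tgfbr1 in co-culture thus depends on the probe set, and the mean log2 difference over all 3 was -1.34.

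Tgfbr2 encodes the type II receptor, which binds the ligand first. Its brightest probe set, 1426397_at, gave 4513 in co-culture, 5155 in conditioned medium and 4733 in regular medium, at most 1.14-fold apart. Probe set 1425444_a_at gave 218.5, 471.0 and 409.9, so co-culture was 1.88-fold below regular medium and 2.16-fold below conditioned medium on that probe set. The remaining one, 1422019_at, was below the floor at 12.3, 17.8 and 27.4.

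Tgfbr3 encodes betaglycan, the co-receptor that presents ligand, Tgfb2 in particular, to the type II receptor. It was below the bright level on every array. Probe set 1433795_at gave 105.5 in co-culture, 32.8 in conditioned medium and 90.4 in regular medium, and 1425620_at gave 7.8, 1.7 and 15.6, all below the floor. The first probe set was at least 2.13-fold lower in conditioned medium than in regular medium, but both signals were too dim for the 2-fold rule to apply.

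Among the receptor SMADs, the brightest probe set of Smad3 differed by 1.91-fold between co-culture and regular medium and that of Smad2 by 1.11-fold, and the probe sets of Smad3 were again divided. Smad3 is the receptor SMAD that binds DNA directly. Probe set 1454960_at gave 2275 in co-culture, 1176 in conditioned medium and 1189 in regular medium, so co-culture was 1.91-fold above regular medium. Probe set 1450472_s_at gave 321.4, 375.5 and 371.4, and 1450471_at gave 144.7, 309.2 and 220.6. On these dimmer probe sets co-culture was lower than regular medium, by 1.16-fold and 1.52-fold. The log2 differences over the 3 probe sets ran between -0.61 and 0.94 with an SD of 0.80, and their mean over the probe sets was 0.04.

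Smad2, the other receptor SMAD of this branch, gave 1438 in co-culture, 1248 in conditioned medium and 1291 in regular medium on 1420634_a_at. Its second probe set, 1442062_at, gave 329.5, 352.4 and 261.5. Co-culture lay 1.11-fold and 1.26-fold above regular medium on them, and the order of co-culture and conditioned medium was not the same on both.

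Smad4, the common partner of the receptor SMADs, gave 5538 in co-culture, 4028 in conditioned medium and 4223 in regular medium on 1422487_at. The other probe sets, 1422485_at with 2948, 3097 and 2776 and 1422486_a_at with 2444, 2346 and 2296, lay within 1.12-fold over all arrays. The 3 log2 differences between co-culture and regular medium were 0.39, 0.09 and 0.09.

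Smad7, the inhibitory SMAD that blocks the type I receptor and is itself a target of the pathway, gave 1292 in co-culture, 912.5 in conditioned medium and 842.4 in regular medium on 1423389_at. Co-culture was 1.53-fold above regular medium there. Probe set 1443771_x_at, whose name marks possible cross-hybridisation, gave 364.9, 311.7 and 399.7, a log2 difference of -0.13.

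**Figure D2:**
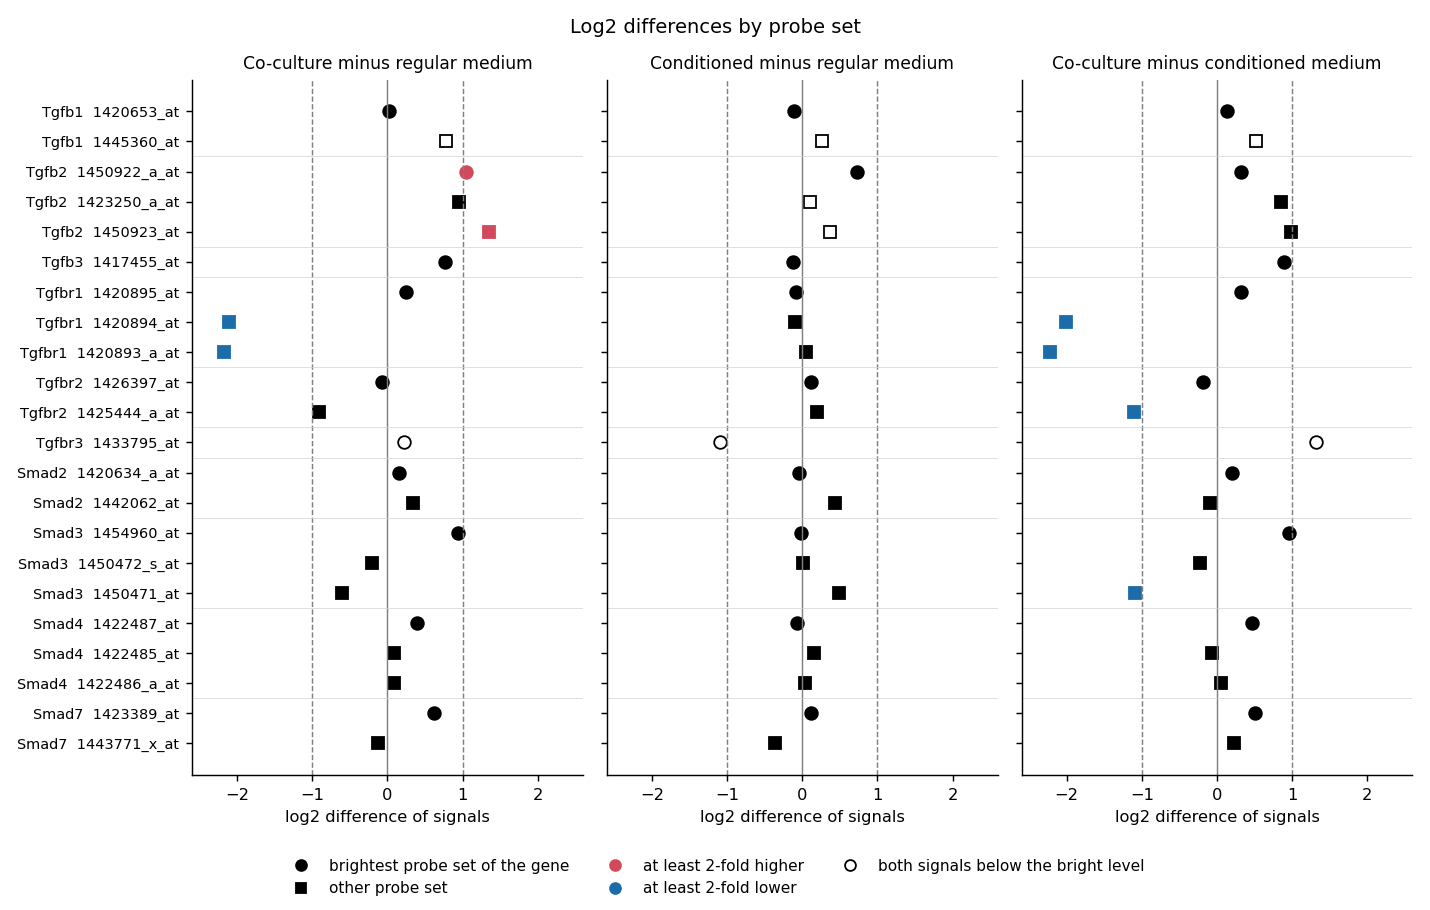
Log2 difference of signals for the 22 probe sets above the floor on at least 1 array, in the 3 comparisons, with the brightest probe set of a gene as a circle and the others as squares. In the co-culture panels the Tgfb2 points lie to the right of 0, the Tgfbr1 points are split between 0.25 and -2.17 against regular medium, and in the conditioned-medium panel no bright point reaches 1 or -1.

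Counted by gene, co-culture against regular medium had 9 of the 10 genes bright. Of these, 1 was at least 2-fold higher (Tgfb2), 0 were lower and 8 lay within 2-fold, where 5.81% of all 9393 bright genes were at least 2-fold higher, 2.76% lower and 8.57% either. The median log2 difference of the 9 genes was 0.39, against 0.07 over all bright genes, and 8 of the 9 lay above 0, against 56.0% of all genes. Tgfb2 stood above 94.7% of the 9452 genes that were bright on any array, Smad3 above 93.1%, Tgfb3 above 89.4% and Smad7 above 84.4%. With 1 gene called, nothing particular to these genes is read from the count.

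Counted by probe set, the same comparison had 20 of 25 bright, with 2 higher (both Tgfb2) and 2 lower (both Tgfbr1), where 5.17% of the 19131 bright probe sets were higher and 5.49% lower. Their median log2 difference was 0.12, against 0.00 over all bright probe sets. Of these 20 probe sets 13 lay above 0, against 50.1% of all bright probe sets. Against conditioned medium, 20 probe sets were bright in co-culture or conditioned medium, and 4 were at least 2-fold lower in co-culture: 1420894_at and 1420893_a_at of Tgfbr1, 1425444_a_at of Tgfbr2 and 1450471_at of Smad3. There 5.47% of 18987 bright probe sets were lower and 5.29% higher. By gene, 0 of the 9 bright genes met the 2-fold rule in that comparison, where 5.83% of 9350 genes were higher, 2.6% lower and 8.43% either, and the median log2 difference was 0.32, against 0.07 over all genes. The comparisons of co-culture with regular and with conditioned medium share the co-culture array.

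In conditioned medium against regular medium, 9 genes were bright and 0 met the 2-fold rule in either direction, where 0.109% of 9152 genes were higher and 0.306% lower. No test was run there, as in every comparison. The median log2 difference was -0.05, against 0.01 over all bright genes. Tgfb2 was the exception in size, at 0.73 on its brightest probe set, above 99.5% of the 9452 genes, but at 0.30 as the mean over all its probe sets. That mean includes 1438303_at, below the floor on all arrays, as a difference of 0. The other 8 bright genes lay between -0.12 and 0.12. By probe set, 0 of 18 were called, where 0.193% of 18666 were higher and 0.429% lower.

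The genes nearest to Tgfb2 in pattern were sought by the distance between pairs of log2 differences, co-culture and conditioned medium each against regular medium, among 9452 genes. Tmem71 (log2 differences of 1.07 and 0.86), Mmaa (0.94 and 0.65) and Tbc1d32 (0.95 and 0.62) were the 3 nearest, at distances of 0.13, 0.14 and 0.15. A total of 7 genes lay within 0.2. The measure rests on 3 arrays and on the brightest probe set of Tgfb2. The other probe sets above the floor gave pairs of 1.35 and 0.36 and of 0.95 and 0.10, with a smaller second value than any of these 3 genes.

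The divided probe sets of Tgfbr1, Tgfbr2 and Smad3 were set beside those of all genes. In 4477 genes with at least 2 bright probe sets, the second-brightest probe set had a lower log2 difference between co-culture and regular medium than the brightest in 59.2% of genes, with a median gap of -0.11 and an interquartile range of -0.46 to 0.19. Between conditioned and regular medium the median gap was -0.01 over 4396 genes, with an interquartile range of -0.16 to 0.12. The scatter of a probe set, computed from these gaps, was 0.41 for co-culture and 0.20 for conditioned medium on the log2 scale.

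Against that background the gap was -2.35 for Tgfbr1, and 0.201% of genes had a lower one. It was -1.14 for Smad3, -0.84 for Tgfbr2, -0.75 for Smad7, -0.30 for Smad4, -0.10 for Tgfb2 and 0.18 for Smad2. The second-brightest probe set thus had the lower difference in 6 of these 7 genes. For Tgfb2 the next probe set in brightness, 1450923_at, had 1.35, above the 1.05 of the brightest. In conditioned medium the gap of Tgfbr1 was -0.02 and that of Smad3 0.03. Counted by gene, 67.8% of the 805 calls in co-culture against regular medium were higher, and counted by probe set 48.5% of 2039 were. The count by probe set also takes in probe sets with no gene symbol or several, so these shares cover unlike sets. The part of RNA quality, transcript form or isolation in these gaps was not tested.

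**Figure D3:**
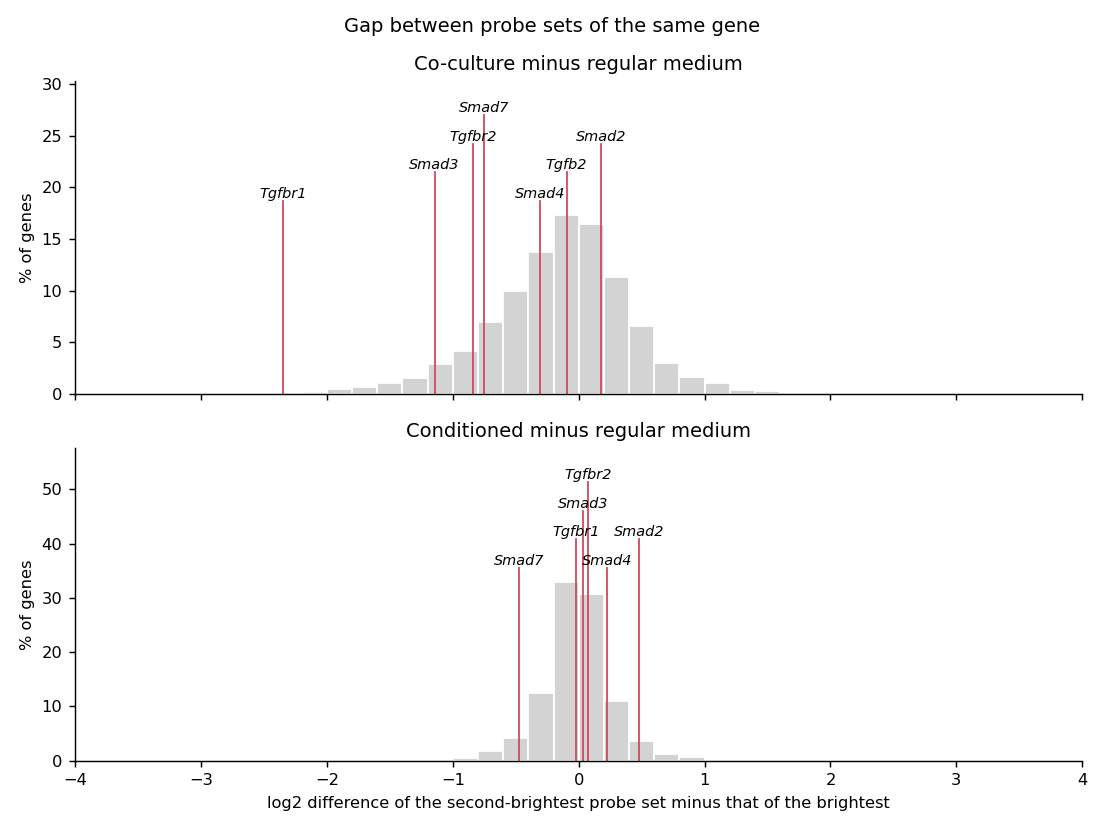
Share of genes (%) by the gap between the log2 differences of the second-brightest and the brightest probe set, for co-culture (top) and conditioned medium (bottom) against regular medium, in bins of 0.2, with the pathway genes as red lines. In co-culture the distribution is wider and Tgfbr1 lies far to the left at -2.35, while in conditioned medium all marked genes lie between -0.47 and 0.48.

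Genes that store and release TGF-beta ligands came next, as a list of 20 of which 18 matched and 12 were bright in co-culture against regular medium. Of these, 2 were at least 2-fold higher and 0 were lower, where 5.81% of all bright genes were higher and 2.76% lower. The list's median log2 difference was 0.45, against 0.07 over all bright genes. Both higher ones encode latent TGF-beta binding proteins, which tether latent ligand to the matrix. Ltbp3 had a signal of 7064 in co-culture, 2602 in conditioned medium and 2475 in regular medium, which makes co-culture 2.85-fold higher than regular medium. Log2 differences of 1.63 and 2.17 on the remaining bright probe sets had the same direction. Ltbp1 had 2911, 1107 and 1326, with co-culture 2.20-fold higher.

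Other members of this list stayed within 2-fold. Ctsd, a lysosomal protease, had log2 differences of 0.94 in co-culture and 0.05 in conditioned medium, and Ltbp4 had 0.57 and -0.17. Plau, the urokinase that helps make plasmin, had -0.52 and -0.07. In conditioned medium 0 of 11 bright genes met the rule, where 0.415% of all genes did, and Itgb6, an integrin chain that can release latent TGF-beta in epithelia, had 0.29. Pcsk6, a proprotein convertase, had -0.28 but was below the bright level on both arrays. Of the MSC and fibroblast markers, Bgn was at least 4.28-fold higher in co-culture than in regular medium, Postn 2.35-fold and Sparc 2.04-fold. The median log2 difference of that list was 0.89 over 9 bright genes, with 8 above 0 and 1 (Col6a2) below 0. The part of these markers in the ligand storage values was not tested.

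Related receptors and co-receptors, many of which serve activins and bone morphogenetic proteins (BMPs), had 7 of 15 genes bright in co-culture against regular medium. Of these 1 was higher and 0 were lower, where 5.81% and 2.76% of all bright genes were. Acvr2a, an activin type II receptor, had 716.0 in co-culture, 340.0 in conditioned medium and 282.0 in regular medium, so the log2 difference from regular medium was 1.34 on this probe set and 0.38 on a second bright one. Eng, the co-receptor endoglin, had log2 differences of 0.65 in co-culture and 0.03 in conditioned medium. Acvr1 and Acvr1b, type I receptors, had 0.54 and 0.43 in co-culture, and Rgmb, a BMP co-receptor, had -0.48. Acvr2b was bright only in conditioned medium, with 96.6 in co-culture, 155.9 in conditioned medium and 122.3 in regular medium. The list median was 0.43, but -0.07 with the mean over all probe sets of a gene.

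The remaining SMADs and cofactors had 12 of 15 genes bright, 0 of them called in either direction in any comparison. Of all bright genes 8.57% were called in co-culture and 0.415% in conditioned medium against regular medium. The list's median log2 difference in co-culture was 0.18. Smad1, a SMAD of the BMP branch, had 3184 in co-culture, 2005 in conditioned medium and 1874 in regular medium, a log2 difference of 0.76. Hgs, an endosomal sorting protein, had 0.60, and the acetyltransferase coactivators Ep300 and Crebbp had 0.50 and 0.48. Traf6, a ubiquitin ligase that links the receptors to kinase signalling, had -0.67 on its brightest probe set and 0.71 on the other. In conditioned medium Tab1, an activator of the kinase TAK1, had -0.41, the lowest value of this list.

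Feedback regulators and turnover factors had all 17 listed genes bright and 0 called in any comparison. Of all bright genes 8.57% were called in co-culture and 0.415% in conditioned medium against regular medium, and 8.43% in co-culture against conditioned medium. The median log2 difference in co-culture against regular medium was 0.28 with 15 of 17 above 0, against 0.07 and 56.0% over all bright genes. Ski and Skil, corepressors that bind SMADs, had 0.90 and 0.46. Smurf1, a ubiquitin ligase of the receptors and SMADs, had 0.82, and Pmepa1, a TGF-beta-induced inhibitor of SMAD signalling, had 0.70 with other probe sets at 0.66 and 2.01. Usp11, a deubiquitinase, had 0.90. The second probe sets of Skil and Smurf1 were at -0.34 and -0.54, so their direction depends on the probe set. Usp9x had 0.20 on its brightest probe set and -2.26 on the lowest of its other bright ones. Ppm1a had 0.28 on its brightest and 1.92 on the highest of its others. The count of 0 calls thus holds for the brightest probe sets only. In conditioned medium Vasn, which encodes a ligand-binding decoy, had -0.58 and Wwp1, a ubiquitin ligase, 0.27.

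Genes known to respond to TGF-beta in other cells had members called in both directions in co-culture. Of 38 listed genes 35 matched and 25 were bright, with 2 higher, 2 lower, 21 within 2-fold and a median log2 difference of 0.12. Over all bright genes 5.81% were higher and 2.76% lower, with a median of 0.07. Klf10, an early TGF-beta-induced transcription factor, had 4348 in co-culture, 1260 in conditioned medium and 1195 in regular medium, which is 3.64-fold higher than regular medium. Sphk1, a sphingosine kinase, had 1375, 671.5 and 645.0, 2.13-fold higher.

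The lower genes were Has2 and Id1. Has2, a hyaluronan synthase, had 277.1 in co-culture, 1261 in conditioned medium and 1299 in regular medium, 4.69-fold lower than regular medium, and a second bright probe set differed by -2.71 on the log2 scale. Id1, an inhibitor of differentiation that also responds to BMPs, had 386.5, 1030 and 794.1, 2.05-fold lower. Its relative Id3 had 1133, 2079 and 2079, a log2 difference of -0.88. Conditioned and regular medium were at most 1.05-fold apart for Klf10, Has2, Sphk1 and Id3, and 0 of the 25 genes met the rule there. The largest log2 differences in conditioned medium were 0.37 for Id1 and 0.23 for Hmga2, an architectural chromatin protein.

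Activins, BMPs and their antagonists had 7 of 20 matched genes bright, with 1 higher and 0 lower in co-culture, where 5.81% of all bright genes were higher and 2.76% lower. Bmp7, a BMP ligand, had 451.5 in co-culture, 151.8 in conditioned medium and 170.7 in regular medium, and its log2 difference of 1.40 against regular medium came with 1.06 and 1.99 on its other bright probe sets. Nbl1, a BMP antagonist, had 0.93, Fstl3, a follistatin-like protein, 0.61, and Bmp1, the procollagen proteinase, 0.57. Fst, the activin antagonist follistatin, had 151.3, 290.5 and 245.0, a log2 difference of -0.70 in co-culture and 0.25 in conditioned medium. Inhba, the activin A subunit, had 1453, 1468 and 1686. Across these lists, the genes called in co-culture had their other bright probe sets in the same direction where there were any, as for Ltbp3, Acvr2a, Has2 and Bmp7. Klf10, Sphk1, Id1 and Ltbp1 had no other bright probe set. Some uncalled genes had another bright probe set past 2-fold against regular medium. Among them were Pmepa1, Usp9x and Ppm1a as given above, Itgav with -1.30 (brightest 0.38) and Twsg1 with -1.75 (brightest -0.27).

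**Figure D4:**
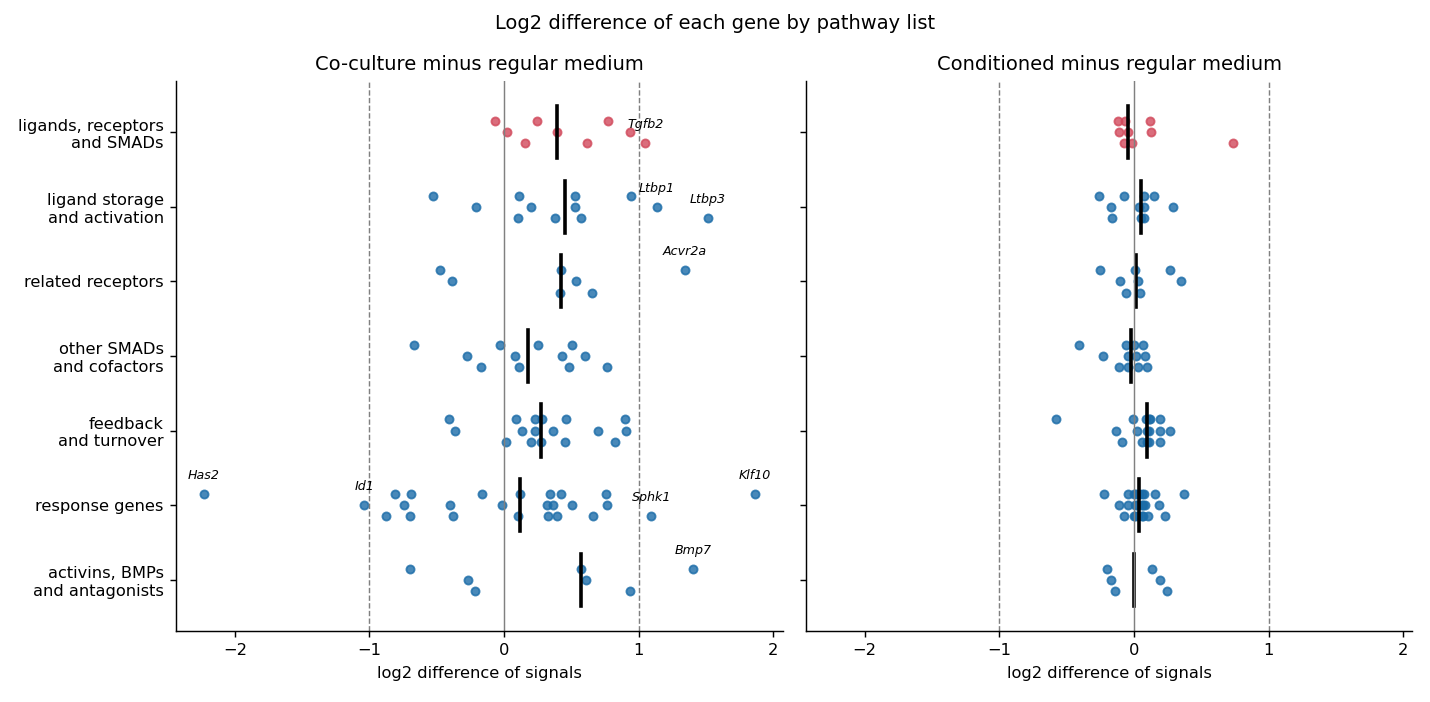
Log2 difference of signals for each bright gene (1 point a gene, its brightest probe set) by list, for co-culture and conditioned medium against regular medium, with the median of each list as a black bar and dashed lines at 2-fold. In co-culture Klf10 and Has2 lie farthest out at 1.86 and -2.23, and in conditioned medium no gene of these lists passes the dashed lines.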

How the data were processed

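RNA of 4T1 cells was hybridised to Affymetrix mouse 430 2.0 arrays, and groups were taken from the labels. The deposited values are intensity signals on a linear scale. The submitters' processing notes name MAS5 as the tool, without a version or a scaling target. MAS5 summarises each probe set as a single signal. The arrays had 2%-trimmed means between 497.7 and 498.0, so no scaling was added. Of 45037 probe sets, 34945 had 1 gene symbol, 932 several and 9160 none, and symbols were updated through the gene ID to 18193 genes.

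The floor was the 40th and the bright level the 60th percentile of all signals. The procedure was tested on simulated data with less scatter than that between probe sets here. Fold changes were put only into genes brighter than Tgfb2, and none was close to 2-fold. A call near 2-fold at such a signal was therefore not tested. The members and lists were chosen with earlier results of these data known. Named list genes are up to 5 with the largest difference in co-culture and 2 in conditioned medium against regular medium in each list, plus genes marking cell types. Alternatives changed scaling, floor, bright level, probe set choice and size rule. Counting every probe set was added after the data were seen. Python 3.11.15, NumPy 2.4.6, pandas 2.3.3 and Matplotlib 3.10.9 were used.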

Additional observations from a re-analysis of the deposited data

How the results depend on the processing

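No paired analysis was possible because each group has 1 array, and leaving out a replicate does not apply. A value was taken as moved when it shifted by at least the scatter of a probe set, and a count when it changed by more than 1.5 times. That scatter was computed from the gaps over all genes and is not the SD of a single gene. It was 0.41 in the co-culture comparisons and 0.20 in conditioned against regular medium. The only difference of these 10 genes called by gene, that of Tgfb2, kept its sign under the alternatives. Some uncalled differences changed sign, among them Tgfbr1 in co-culture against regular medium, from 0.25 to -1.34 as the mean over probe sets.

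The single call, Tgfb2 in co-culture against regular medium, held under quantile normalization, with a log2 difference of 1.07. A floor at the 20th percentile, no bright level and leaving out cross-hybridising probe sets kept it at 1.05. These settings could not change it, because both signals lay above the floor, the brighter one passed the bright level and the probe set was kept. The call was lost (0 genes higher) with a 3-fold rule or a bright level at the 80th percentile. A floor at the 60th percentile, log2(signal + 16) and the mean over all probe sets of a gene lost it as well. The count was 2 with each array divided by its median or with every probe set counted by itself, and 4 with a 1.5-fold rule. The log2 difference of Tgfb2 stayed between 0.84 and 1.19. The mean over probe sets gave 1 gene lower (Tgfbr1) against regular medium, at -1.34, and 1 against conditioned medium, at -1.30. Counting every probe set gave 2 lower in the first comparison and 4 in the second. The mean over probe sets also took Tgfb2 to 0.30 in conditioned against regular medium, and Smad3 to 0.04 against regular medium and -0.12 against conditioned medium. For Tgfb2 each such mean includes 1438303_at, below the floor on all arrays, as a difference of 0. In co-culture against conditioned medium 2 genes were higher with a 1.5-fold rule and 1 (Tgfbr3, dim) with no bright level. In conditioned against regular medium 1 (Tgfb2) was higher with a 1.5-fold rule and 1 (Tgfbr3) lower with no bright level.

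All genes called in co-culture against regular medium numbered 805, against 2512 with a 1.5-fold rule, 222 with a 3-fold rule, 435 with the 80th percentile and 2039 by probe set. For co-culture against conditioned medium, 788 became 2509, 233, 423 and 2042 under the same settings. For conditioned against regular medium, 38 became 203, 17, 2 and 116, and 3 with a floor at the 60th percentile, 22 with the mean over probe sets and 259 with no bright level. The counts by probe set also take in probe sets with no gene symbol or several. Dividing each array by its median shifted the median log2 difference of all genes by 0.14 in co-culture and 0.16 in conditioned medium against regular medium, so that 82.7% and 58.1% of calls were higher, in place of 67.8% and 26.3%. Quantile normalization made it 37.5% in conditioned medium.

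The list medians kept within the scatter except for 2 lists. The median of activins, BMPs and antagonists in co-culture was -0.21 against regular medium and -0.015 against conditioned medium with the 80th percentile, which left 3 genes, and 0 in both with no bright level. The median of related receptors against regular medium was -0.069 with the mean over probe sets and 0 with no bright level. The median range between probe sets of a gene in co-culture was 0.75 over 7 genes. With the 80th percentile 1 gene was left, with a range of 0.30.

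Signals below the floor of 42.4 have no order, which leaves 1438303_at of Tgfb2, 1422019_at of Tgfbr2 and 1425620_at of Tgfbr3 without a measured difference. The causes of these changes were not tested.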
